A study of Danio rerio with 12 samples.

Results

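Genes of fibroblast growth factor (Fgf) signalling were followed in zebrafish embryos: the ligands fgf3, fgf8a, fgf17 and fgf24, the receptor fgfr1a, the feedback inhibitors spry2, spry4, dusp6 and il17rd, and the transcription factor gene etv4. The genes were chosen by symbol, and an a or b suffix of a duplicated copy was allowed to be missing. The symbols fgf8 and fgfr1 each matched 2 Ensembl genes that the name table did not separate, so the 10 symbols gave 12 genes of the 25432 in the count tables. These copies are called here by symbol and identifier. Of the 12 genes, 11 passed the filter of more than 1 CPM, the counts of a gene scaled to a library total of 1000000, in at least 3 of the 12 libraries, and 1 copy of fgf8 did not.

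Fgf ligands are secreted proteins that bind receptor tyrosine kinases together with heparan sulfate on the cell surface, and the receptors signal through Ras and the MAP kinase cascade. The cascade switches on genes that include its own inhibitors, among them Sprouty proteins, the Erk phosphatase Dusp6 and the membrane protein Il17rd, also known as Sef, as well as transcription factor genes of the Ets family such as etv4. In the zebrafish gastrula, Fgf ligands are made at the margin of the embryo, where the pathway acts in mesoderm formation and in dorsoventral patterning.

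Whole embryos were sequenced in 4 groups of 3 libraries each: MZznf598 and wild type at 6 hours post fertilization (hpf), and MZznf598 and wild type at 1 hpf. MZznf598 embryos lacked both maternal and zygotic activity of Znf598, a ubiquitin ligase that recognizes collided ribosomes, through a frameshifting deletion in the first exon of znf598 in 1 mutant strain. The wild type was the AB strain, both genotypes came from natural breeding, and each library was made from a pool of embryos. The stages lie on either side of the maternal-to-zygotic transition (MZT), when the embryo replaces maternal mRNAs with its own. The design compares mRNAs of the mutant and wild-type embryos before and after it. MZznf598 embryos came from homozygous mutant parents and were not siblings of the wild type. Loss of Znf598 therefore cannot be told apart from other differences between the lines. Nothing in the labels says that libraries of a group came from separate clutches, and p-values measure only the spread between these libraries.

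Library totals ran from 7144704 to 12162660 counts. The mRNA of znf598 itself had 9.33, 10.5 and 8.14 CPM in MZznf598 and 112, 103 and 62.6 CPM in wild type at 6 hpf, and 3.60, 3.71 and 3.45 CPM in MZznf598 and 130, 142 and 128 CPM in wild type at 1 hpf. The third wild-type library stood apart from its group at both stages: 9.52% of the genes tested at 6 hpf and 6.64% at 1 hpf differed more than 2-fold from the mean of the other 2 libraries, against 0.853% to 4.28% in the other 10 libraries. A figure shows the 6 hpf differences of the Fgf genes with and without the third wild-type library of that stage. Other results are given both ways where stated. Regional markers of the gastrula were present at 6 hpf. In both genotypes, 17 of 17 margin genes and 9 of 9 dorsal genes tested were called higher at 6 hpf than at 1 hpf. So were 10 of 12 ventral genes and 9 of 10 enveloping layer genes. The lists share genes and are not independent: noto is in the margin and dorsal lists, and vox, vent and ved in the margin and ventral lists. Over all genes tested, 36.3% in MZznf598 and 36.5% in wild type were called higher (edgeR quasi-likelihood test, adjusted p below 0.01).

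None of the 11 Fgf genes tested was called different between MZznf598 and wild type at 6 hpf, in a comparison that called 3.51% of all genes tested (edgeR quasi-likelihood test, Benjamini-Hochberg adjusted p below 0.01). At an unadjusted p below 0.05 there were 4 of the 11, against 22.2% of all genes. DESeq2 and the edgeR likelihood ratio test also called 0 of them. The log2 fold changes lay between -0.40 (fgf24) and 0.41 (fgf17) with a median of 0.13, against a median of -0.01 over all genes. They were positive for 8 of the 11 genes and for 48.1% of all genes.

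Among the ligands, fgf3 and fgf17 were above wild type in every MZznf598 library at 6 hpf without passing the test. The level of fgf3, a ligand made at the margin, was 58.3, 63.5 and 60.7 CPM in MZznf598 and 49.2, 50.4 and 42.5 CPM in wild type. The groups did not overlap, and the difference was 0.36 ± 0.14 on the log2 scale (SE, adjusted p = 0.147, 95% interval 0.06 to 0.66). For fgf17, a ligand of the same subfamily as fgf8, the values were 80.5, 70.5 and 72.5 CPM in MZznf598 and 68.4, 53.5 and 45.5 CPM in wild type. The lowest MZznf598 library was just above the highest wild-type one, and the difference was 0.41 ± 0.16 (SE, adjusted p = 0.161, 95% interval 0.05 to 0.77). For both genes the third wild-type library was the lowest. Without it the differences shrank to 0.28 for fgf3 and 0.28 for fgf17. These were the low ends over the 12 fits that left out 1 library. The high ends were 0.39 for fgf3, without the second wild-type library at 6 hpf, and 0.58 for fgf17, without the first. The lowest edgeR adjusted p over these fits was 0.0879 for fgf3 and 0.0462 for fgf17, so neither was called. In whole embryos, more cells of a type and more RNA per cell cannot be told apart.

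The fgf8 copy ENSDARG00000003399 encodes a ligand of the margin and later of brain boundaries. It had 43.0, 42.6 and 37.1 CPM in MZznf598 and 33.0, 33.0 and 37.6 CPM in wild type at 6 hpf. The lowest MZznf598 library lay below the highest wild-type library. The difference of 0.25 had an interval that reached from -0.28 to 0.77 (edgeR adjusted p = 0.624). This interval uses the spread of the gene over all 12 libraries, those with few counts at 1 hpf included. At 6 hpf its SD was 3.29 CPM in MZznf598 and 2.66 CPM in wild type. The other copy, ENSDARG00000039615, had 1 count in each MZznf598 library and 2 counts in each wild-type library at 6 hpf. At 1 hpf it had 0 counts in each MZznf598 library and 0, 1 and 2 counts in the wild-type libraries, so nothing can be compared at this depth.

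The largest negative value was that of fgf24, a ligand known in zebrafish for roles in posterior mesoderm and fin bud initiation, and it came from a single library. At 6 hpf fgf24 had 16.2, 18.1 and 14.3 CPM in MZznf598 and 13.8, 17.8 and 33.0 CPM in wild type. The MZznf598 libraries lay within the range of the first and second wild-type libraries or just above it, and the third wild-type library stood alone, 1.05 above the mean of the other 2 on the log2(CPM + 0.5) scale. The difference was -0.40 (adjusted p = 0.484), and without the third wild-type library at 6 hpf it was 0.03 (adjusted p = 0.961). This value of fgf24 was the farthest from its own group among the 11 Fgf genes, as the map of each library against the other 2 of its group shows. The third wild-type library deviated at marker genes too, in both directions. On the same scale most germ plasm and maternal markers were lower. These were nanog (-1.55), nanos3 (-1.50), buc (-1.07), dazl (-0.90), zar1 (-0.71), gdf3 (-0.49), dnd1 (-0.49) and tdrd7a (-0.47). The others of that list were zp3b (0.71), ddx4 (0.59) and pou5f3 (0.02). Among dorsal markers the ends were otx2 (ENSDARG00000011235) at 2.20 and noto at -0.49. The cause was not tested.

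**Figure D1:**
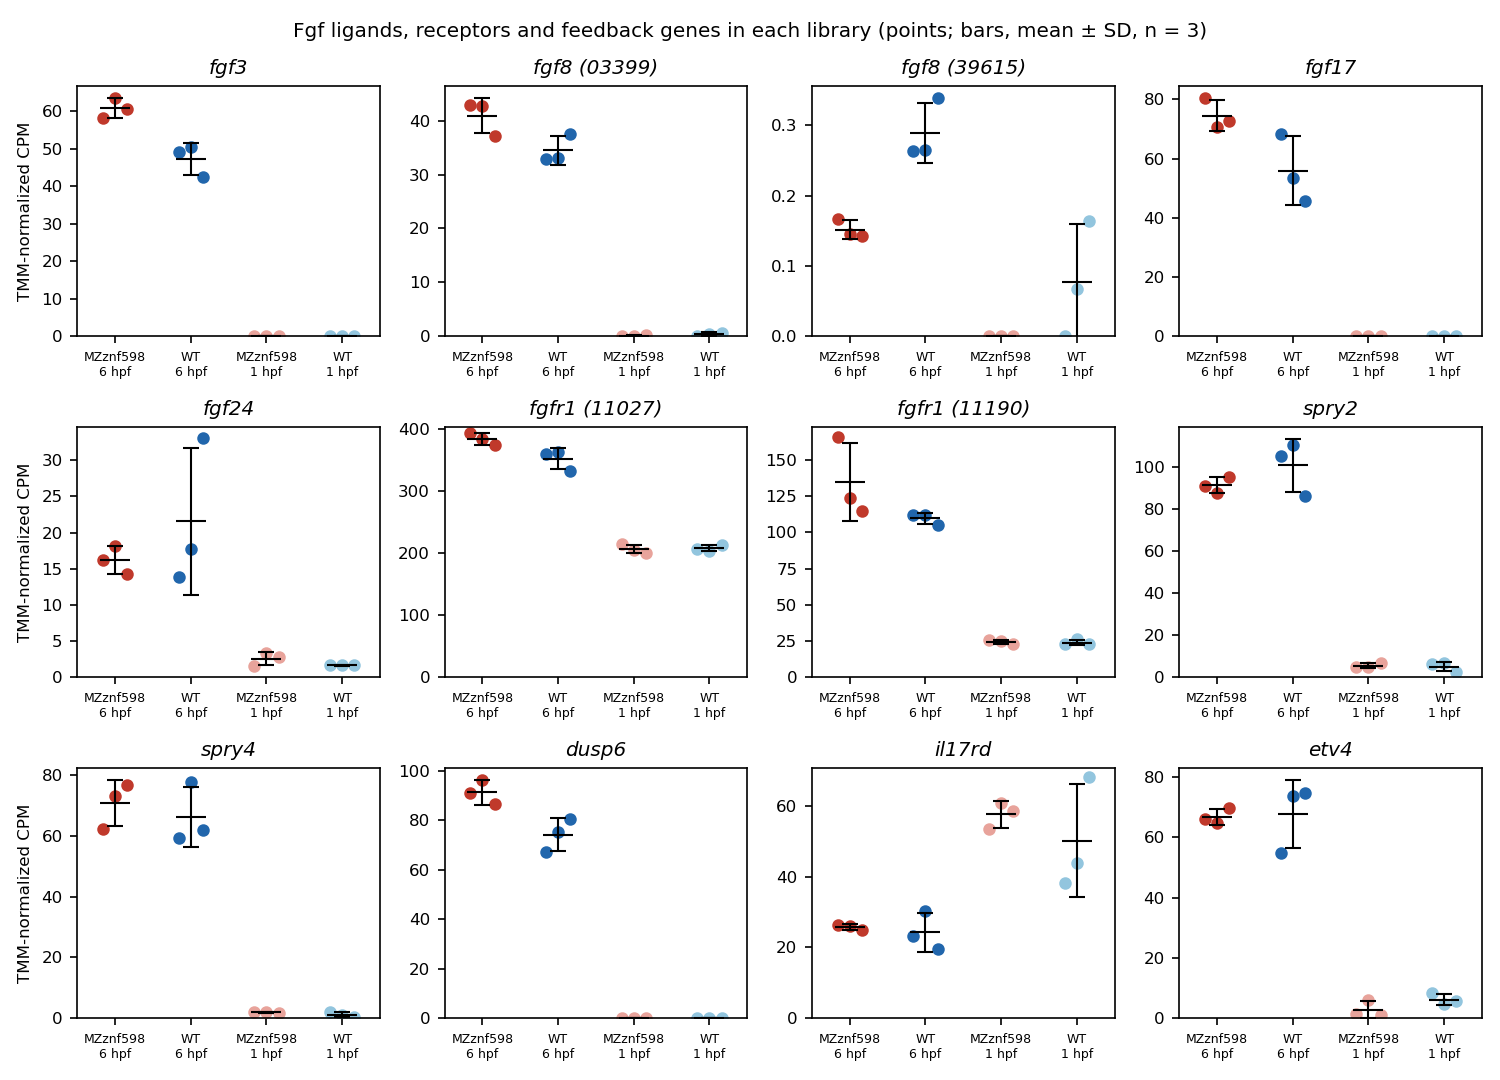
TMM-normalized CPM (vertical axes, starting at 0, scaled per gene) of the 12 Fgf genes in each of the 12 libraries (points), with the mean and SD of each group of 3 (bars). At 6 hpf fgf3, fgf17, dusp6 and both copies of fgfr1 are higher in every MZznf598 library than in wild type, and none is called. Of the 11 genes tested, 10 are higher at 6 hpf than at 1 hpf, and il17rd is lower.

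**Figure D2:**
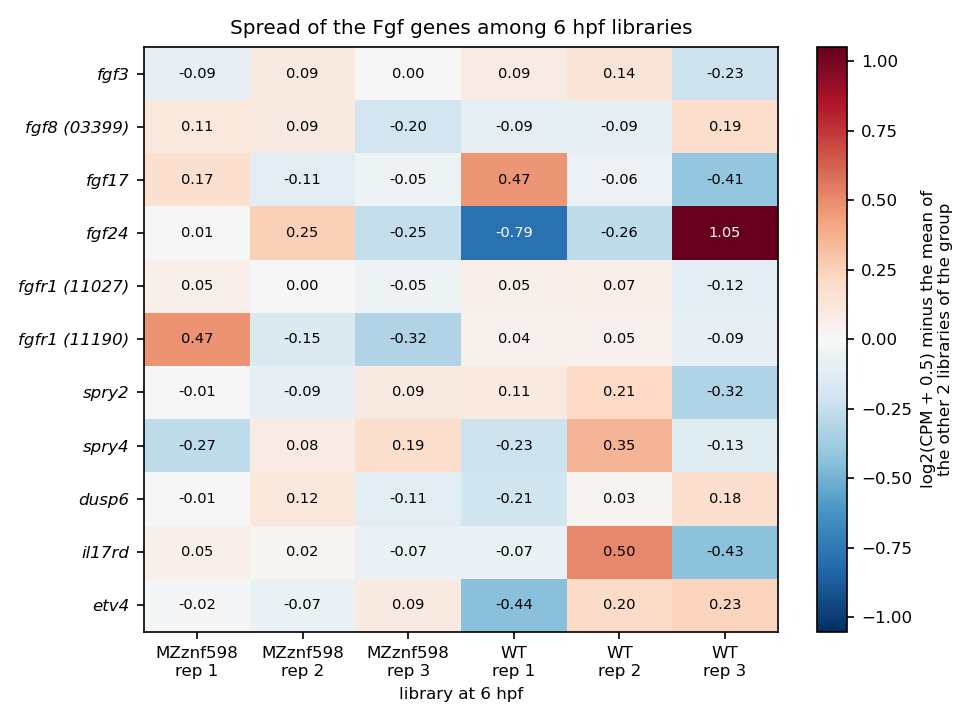
Distance of each 6 hpf library (columns) from the mean of the other 2 libraries of its group for the 11 Fgf genes tested (rows), in log2(CPM + 0.5), in colour and as numbers. The value of 1.05 for fgf24 in the third wild-type library is the farthest from 0, and that library is lower than the other 2 for fgf17 (-0.41) and il17rd (-0.43).

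Both receptor copies were above wild type in every MZznf598 library at 6 hpf by small amounts. Fgfr1 proteins are receptor tyrosine kinases for several Fgf ligands. The copy ENSDARG00000011027 had 393, 383 and 374 CPM in MZznf598 and 360, 362 and 332 CPM in wild type, a difference of 0.13 ± 0.07 on the log2 scale (SE, adjusted p = 0.300, 95% interval -0.02 to 0.27). Without the third wild-type library at 6 hpf this difference was 0.08. The copy ENSDARG00000011190 had 166, 124 and 115 CPM in MZznf598 and 112, 112 and 105 CPM in wild type, and 1 MZznf598 library lay well above the other 2. Its difference was 0.29 ± 0.12 (SE, adjusted p = 0.179), and it was 0.12 without that library (adjusted p = 0.617). Reads that fit both copies equally well are not in the counts, which kept only uniquely aligned reads.

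Of the feedback inhibitors, dusp6 was the gene whose genotypes were separated at 6 hpf. The phosphatase gene dusp6, widely used as a readout of Fgf and Erk activity in zebrafish, had 90.9, 96.4 and 86.6 CPM in MZznf598 and 67.1, 75.1 and 80.4 CPM in wild type. Each MZznf598 library was above each wild-type library, by 0.30 ± 0.13 on the log2 scale (SE, adjusted p = 0.198, 95% interval 0.02 to 0.58). Leaving out 1 library gave 0.22, without the first wild-type library at 6 hpf, to 0.36, without the third. The edgeR adjusted p over these fits ran from 0.0936 to 0.449. Excluding the third wild-type library at both stages gave 0.36 with an adjusted p of 0.0242, still above the threshold of 0.01.

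The Sprouty genes, whose products restrain receptor tyrosine kinase signalling, overlapped between the genotypes. For spry2 the 6 hpf values were 91.1, 87.8 and 95.5 CPM in MZznf598 and 105, 111 and 86.5 CPM in wild type, a difference of -0.14 (adjusted p = 0.771, 95% interval -0.61 to 0.32). For spry4 they were 62.1, 73.2 and 76.8 CPM in MZznf598 and 59.2, 77.5 and 62.0 CPM in wild type, a difference of 0.09 (adjusted p = 0.864, 95% interval -0.38 to 0.57). In both genes the wild-type libraries spread more widely than the MZznf598 libraries.

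The levels of il17rd, which encodes a membrane inhibitor of the pathway, were 26.3, 26.0 and 24.8 CPM in MZznf598 and 23.1, 30.2 and 19.5 CPM in wild type at 6 hpf. The MZznf598 libraries lay inside the wild-type range, and the difference was 0.08 (adjusted p = 0.884, 95% interval -0.38 to 0.53). The Ets factor gene etv4, a transcriptional target of the pathway, had 66.0, 64.5 and 69.7 CPM in MZznf598 and 54.7, 73.7 and 74.7 CPM in wild type. Its difference was -0.02 (edgeR adjusted p = 0.985), with an interval from -0.75 to 0.71. A difference inside that interval could not be told from 0 here. The interval uses the spread of the gene over all 12 libraries, and in MZznf598 at 1 hpf etv4 had 1.51, 6.01 and 1.04 CPM. At 6 hpf its SD was 2.63 CPM in MZznf598 and 11.2 CPM in wild type, so the interval does not measure the 6 hpf spread alone.

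**Figure D3:**
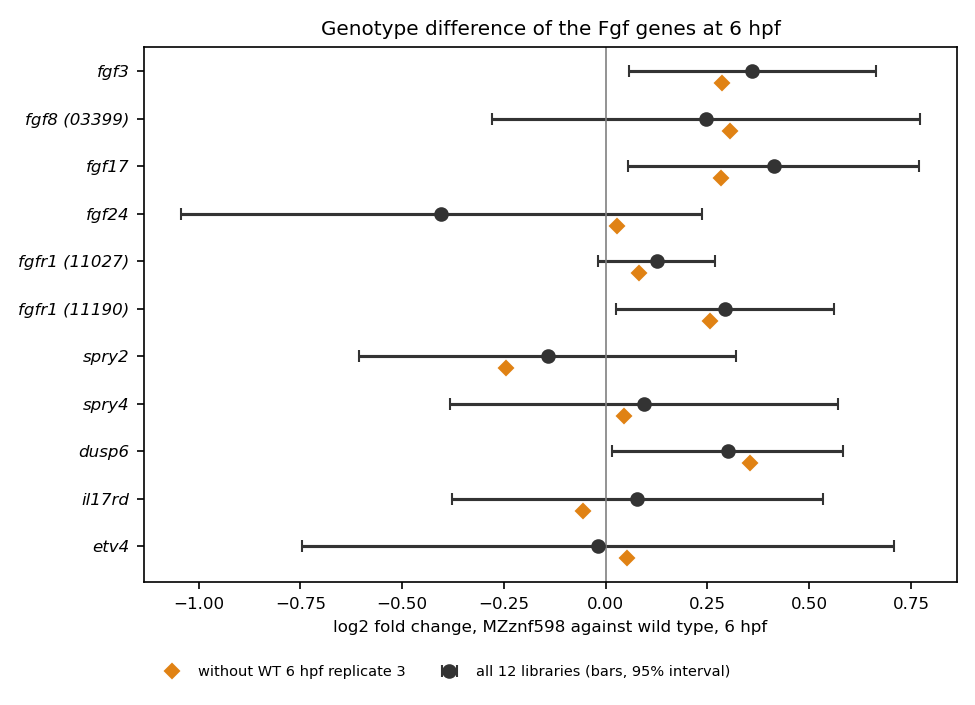
Log2 fold change of the 11 Fgf genes tested, MZznf598 against wild type at 6 hpf (horizontal axis), from all 12 libraries (circles, with 95% intervals) and without the third wild-type library at 6 hpf (diamonds). No gene passed the adjusted p of 0.01, and fgf24 moves to 0.03 without that library.

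The genotypes did not overlap for 5 of the 11 Fgf genes at 6 hpf, fgf3, fgf17, dusp6 and both copies of fgfr1, all higher in MZznf598. Over all genes tested, 14.4% did not overlap and were higher in MZznf598, and 13.6% were lower. The summed levels of 4 of the 5 marker lists did not overlap between the genotypes at 6 hpf either. Such sums cover all matched genes of a list and are weighted to its most abundant genes. No share over all genes was computed for sums of this kind. The 12 ventral marker genes tested had a median log2 fold change of -0.55, with 11 of them negative. The 13 ventral genes matched summed to 1579 to 1611 CPM in MZznf598 and 1891 to 2080 CPM in wild type. The ventral gene szl, which encodes the Bmp feedback inhibitor Sizzled, was the 1 gene of the list that was called, with 17.99, 18.8 and 15.0 CPM in MZznf598 and 65.1, 70.4 and 87.4 CPM in wild type, a difference of -2.10 ± 0.17 (SE, edgeR adjusted p = 1.06e-05). The 11 dorsal marker genes matched summed to 1022 to 1066 CPM in MZznf598 and 782.6 to 883.8 CPM in wild type. Of the 9 tested, 7 were positive and 0 called, with a median log2 fold change of 0.26. The 17 margin markers overlapped, with 5785 to 5927 CPM in MZznf598 and 4888 to 5913 CPM in wild type, and had a median of 0.15. The 10 enveloping layer markers tested summed to 3863 to 4272 CPM in MZznf598 and 4458 to 4666 CPM in wild type. Their median log2 fold change was -0.02, with 5 positive and 0 called. The 11 germ plasm and maternal markers summed to 4636 to 4713 CPM in MZznf598 and 3789 to 4564 CPM in wild type. In wild type 1 library set the low end, since the median of the sums was 4554 CPM. At 6 hpf pou5f3 and nanog held most of the counts of this list, so the sum mostly follows these genes. The wild-type libraries had 9977, 7939 and 2367 counts of nanog, the last in the third library. The median log2 fold change of this list was 0.11, with 8 positive and 0 called. The part of these markers in the Fgf values was not tested.

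At 1 hpf, when transcripts are of maternal origin, none of the 11 Fgf genes was called between the genotypes (edgeR quasi-likelihood test), against 3.83% of all genes tested, and 2 had an unadjusted p below 0.05, against 19.1% of all genes. DESeq2 and the likelihood ratio test also called 0. For 0 of the 11 were the genotypes without overlap, against 12.9% higher and 12.9% lower over all genes. Among the Fgf genes with counts in every 1 hpf library, the receptor copy ENSDARG00000011027 had the narrowest interval. It had 214, 205 and 200 CPM in MZznf598 and 207, 204 and 213 CPM in wild type, a difference of -0.01 with a 95% interval from -0.15 to 0.13. At 1 hpf fgf3, fgf17, dusp6 and fgf8 (ENSDARG00000003399) had few or no counts, which are given below. Their genotype differences at that stage are not described for this reason.

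For etv4, 1 library decided the call at 1 hpf, and for il17rd the call changed once a pair of libraries was excluded. For etv4 the values were 1.51, 6.01 and 1.04 CPM in MZznf598 and 8.28, 4.60 and 5.80 CPM in wild type. The second MZznf598 library lay inside the wild-type range and the other 2 below it, and the difference was -1.10 ± 0.44 (SE, edgeR adjusted p = 0.179). Without that library it was -2.27 with an adjusted p of 0.00109, which passes the threshold. For il17rd the values were 53.3, 60.8 and 58.5 CPM in MZznf598 and 38.2, 43.8 and 68.1 CPM in wild type, a difference of 0.20 (adjusted p = 0.676). The third wild-type library was the highest of all 6. Without it the difference was 0.49 and was not called (adjusted p = 0.0515), and excluding the third wild-type library at both stages gave 0.49 with an adjusted p of 0.0041.

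The low-level genes fgf24, spry4 and spry2 were not called at 1 hpf. The ligand fgf24 had 1.58, 3.36 and 2.81 CPM in MZznf598 and 1.64, 1.76 and 1.63 CPM in wild type, a difference of 0.62 (adjusted p = 0.425). For spry4 the values were 2.23, 1.96 and 1.69 CPM in MZznf598 and 2.04, 1.08 and 0.327 CPM in wild type, a difference of 0.71 (adjusted p = 0.365), which ranged from 0.32 without the third wild-type library at 1 hpf to 1.40 without the first, with adjusted p from 0.0506 to 0.632 over the 12 fits that left out 1 library. For spry2 they were 4.89, 4.75 and 6.91 CPM in MZznf598 and 6.24, 6.70 and 2.45 CPM in wild type, and the groups overlapped.

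Across the MZT, 10 of the 11 Fgf genes tested rose and 1 fell, in MZznf598 and in wild type alike. Higher levels at 6 hpf were called for 36.3% of all genes in MZznf598 and 36.5% in wild type, and lower levels for 33.7% and 33.9% of all genes. The 10 genes that rose were the same in both genotypes, and il17rd was the gene that fell. The stages did not overlap for any of the 11 genes in either genotype. Over all genes, 42.7% in MZznf598 and 39.1% in wild type did not overlap and were higher at 6 hpf, and 42.3% in MZznf598 and 38.2% in wild type were lower.

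The ligands fgf3 and fgf17 and the inhibitor dusp6 were at or near 0 counts at 1 hpf. For fgf17, all 6 libraries at 1 hpf had 0 counts, so that the 6 hpf level was at least 335-fold higher in MZznf598 and at least 260-fold higher in wild type, against a floor of 3 counts per library. For fgf3 there were 0 counts in the 3 MZznf598 libraries at 1 hpf, which made the 6 hpf level at least 274-fold higher. In wild type fgf3 had 1004 counts at 6 hpf and 1 count at 1 hpf, a ratio of 2020 with a counting interval from 361 to 79700.

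The counts of dusp6 were 1813 at 6 hpf and 3 at 1 hpf over the MZznf598 libraries, a ratio of 1240 with a counting interval from 423 to 6010. In wild type dusp6 had 1551 counts at 6 hpf and 0 at 1 hpf, at least 345-fold higher. The fgf8 copy ENSDARG00000003399 had 0.0719, 0.140 and 0.161 CPM (1, 2 and 2 counts) in MZznf598 at 1 hpf. In wild type it had 0, 0.473 and 0.654 CPM (0, 7 and 8 counts). Its 6 hpf level was higher by 8.24 in MZznf598 and 6.54 in wild type on the log2 scale (edgeR adjusted p = 1.14e-09 and 2.58e-09). Leaving out 1 library gave 7.98 to 8.43 in MZznf598 and 5.92 to 7.13 in wild type. With so few counts at 1 hpf the size of this rise is uncertain, and no counting interval was computed for it. Each of these 4 genes was below 1 CPM in every 1 hpf library.

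**Figure D4:**
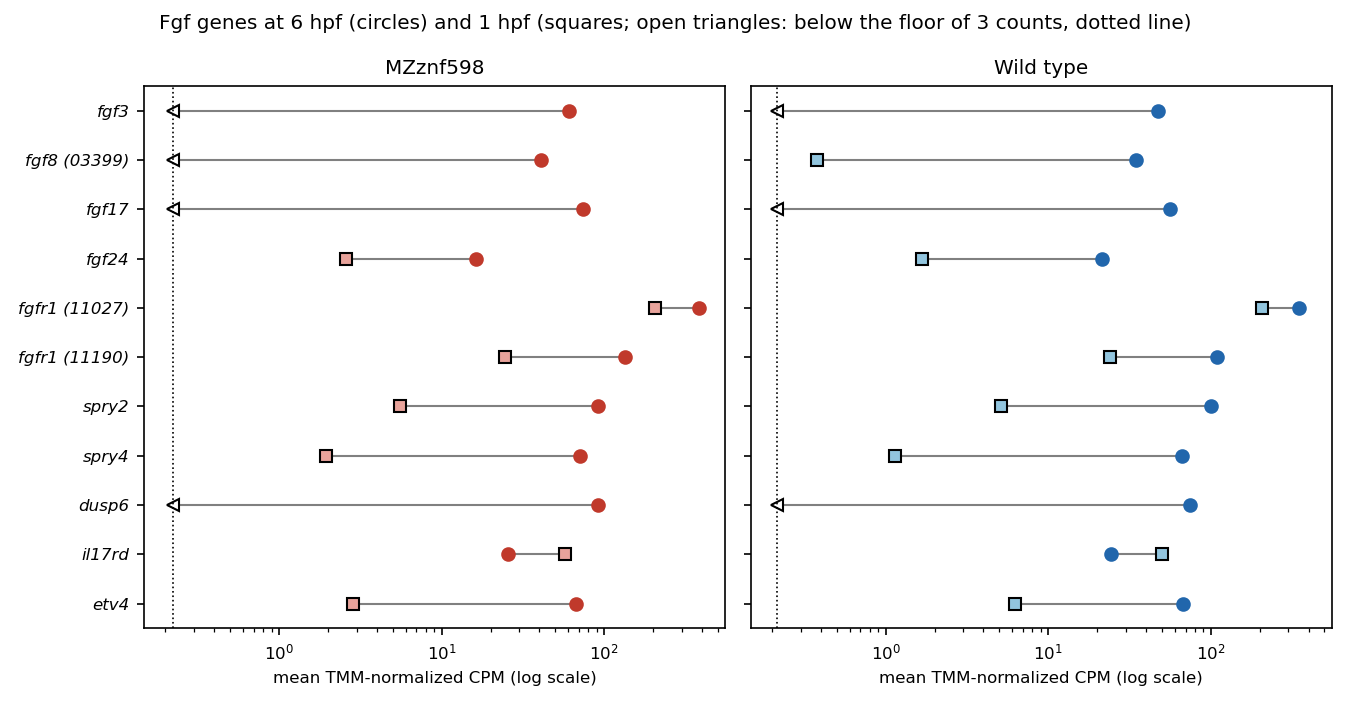
Mean TMM-normalized CPM (horizontal axis, log scale) of the 11 Fgf genes tested at 6 hpf (circles) and 1 hpf (squares) in MZznf598 (left) and wild type (right). Open triangles mark 1 hpf means below the floor of 3 counts per library (dotted line), as for fgf3, fgf17 and dusp6 in both genotypes, and il17rd is the gene whose circle lies left of its square.

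The Sprouty genes, etv4 and fgf24 were low but detected at 1 hpf. In MZznf598 spry2 averaged 91.5 ± 3.87 CPM at 6 hpf and 5.52 ± 1.21 CPM at 1 hpf (SD, n = 3 each), and in wild type 101 ± 12.7 CPM at 6 hpf and 5.13 ± 2.33 CPM at 1 hpf. This was a rise of 4.05 in MZznf598 and 4.27 in wild type on the log2 scale (edgeR adjusted p = 6.78e-09 and 4.11e-09). The rise of spry4 was 5.16 in MZznf598 and 5.78 in wild type, that of etv4 was 4.51 in MZznf598 and 3.43 in wild type, and that of fgf24 was 2.64 in MZznf598 and 3.66 in wild type. For etv4 in MZznf598, leaving out 1 library gave 4.14 to 5.68, both ends through a MZznf598 library at 1 hpf.

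The receptor copies were already present at 1 hpf. The copy ENSDARG00000011027 averaged 383 ± 9.40 CPM at 6 hpf and 206 ± 7.03 CPM at 1 hpf in MZznf598, and 351 ± 17.0 CPM at 6 hpf and 208 ± 4.57 CPM at 1 hpf in wild type (SD, n = 3 each). It rose by 0.89 in MZznf598 and 0.76 in wild type on the log2 scale (edgeR adjusted p = 3.69e-08 and 1.90e-07), the smallest rise among the 10 genes. The copy ENSDARG00000011190 rose by 2.46 in MZznf598 and 2.19 in wild type.

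Opposite to the other inhibitors, il17rd fell across the MZT. It averaged 25.7 ± 0.779 CPM at 6 hpf and 57.5 ± 3.82 CPM at 1 hpf in MZznf598, and 24.2 ± 5.47 CPM at 6 hpf and 50.0 ± 15.9 CPM at 1 hpf in wild type (SD, n = 3 each). The log2 change was -1.16 ± 0.20 in MZznf598 and -1.04 ± 0.20 in wild type (SE, edgeR adjusted p = 0.000133 and 0.000351). Tested against a change of 1.5-fold rather than against no change, the wild-type fall had an adjusted p of 0.0101 and was no longer called.

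The change across the MZT was not called different between the genotypes for any of the 11 Fgf genes (edgeR quasi-likelihood test of the interaction, which called 0.449% of all genes). DESeq2 and the likelihood ratio test called 0 as well, and 1 gene had an unadjusted p below 0.05, against 11% of all genes. That gene was fgf24, whose rise was smaller in MZznf598 by 1.02 on the log2 scale (log2 interaction -1.02, adjusted p = 0.451), and the value was -0.59 without the third wild-type library at 6 hpf. For etv4 the interaction ran from 0.70 to 2.25 when 1 library was left out (edgeR adjusted p from 0.0132 to 0.818, not called). The high end for etv4 came without the second MZznf598 library at 1 hpf.

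Around these genes, the rest of the pathway was not called between the genotypes at 6 hpf either. Those tested were 6 other genes with an fgf symbol, 3 other receptors and 33 adaptors, Ras and MAP kinase genes. They also held 13 other feedback genes, 22 other targets and 20 heparan sulfate genes. Of these 97 genes, 0 passed the edgeR test. An unadjusted p below 0.05 was found for 23 of them (23.7%), close to the 22.2% of all genes. At 1 hpf 3 of the 97 genes (3.09%) were called, all lower in MZznf598, a share near the 3.83% of all genes. The Ras gene hras (ENSDARG00000005651) had 50.0, 51.9 and 45.4 CPM in MZznf598 and 72.4, 68.2 and 76.1 CPM in wild type, a difference of -0.56 (adjusted p = 0.00657), and the adjusted p was 0.0116 under the replicate block. Leaving out 1 library kept the call of hras only where it was a wild-type library at 6 hpf (adjusted p from 0.00103 to 0.0407 over 12 fits). The Myc family gene mych had 18.9, 15.5 and 18.2 CPM in MZznf598 and 35.2, 27.4 and 23.9 CPM in wild type, a difference of -0.72 (adjusted p = 0.00845), and its call was kept in 2 of 12 such fits, those without the third wild-type library of either stage (adjusted p from 0.00245 to 0.0476).

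The third of these genes was sulf2a, which encodes an extracellular sulfatase that edits heparan sulfate. It had 0, 0.0699 and 0 CPM in MZznf598 and 8.48, 8.39 and 17.6 CPM in wild type at 1 hpf (edgeR adjusted p = 1.07e-05). The MZznf598 libraries held 1 count in all and the wild-type libraries 468, a ratio of wild type over MZznf598 of 451 with a counting interval from 80.5 to 17800. At 6 hpf sulf2a had 0.167, 0 and 0.571 CPM in MZznf598 and 2.11, 1.99 and 1.86 CPM in wild type, again without overlap, with an adjusted p of 0.0208.

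**Figure D5:**
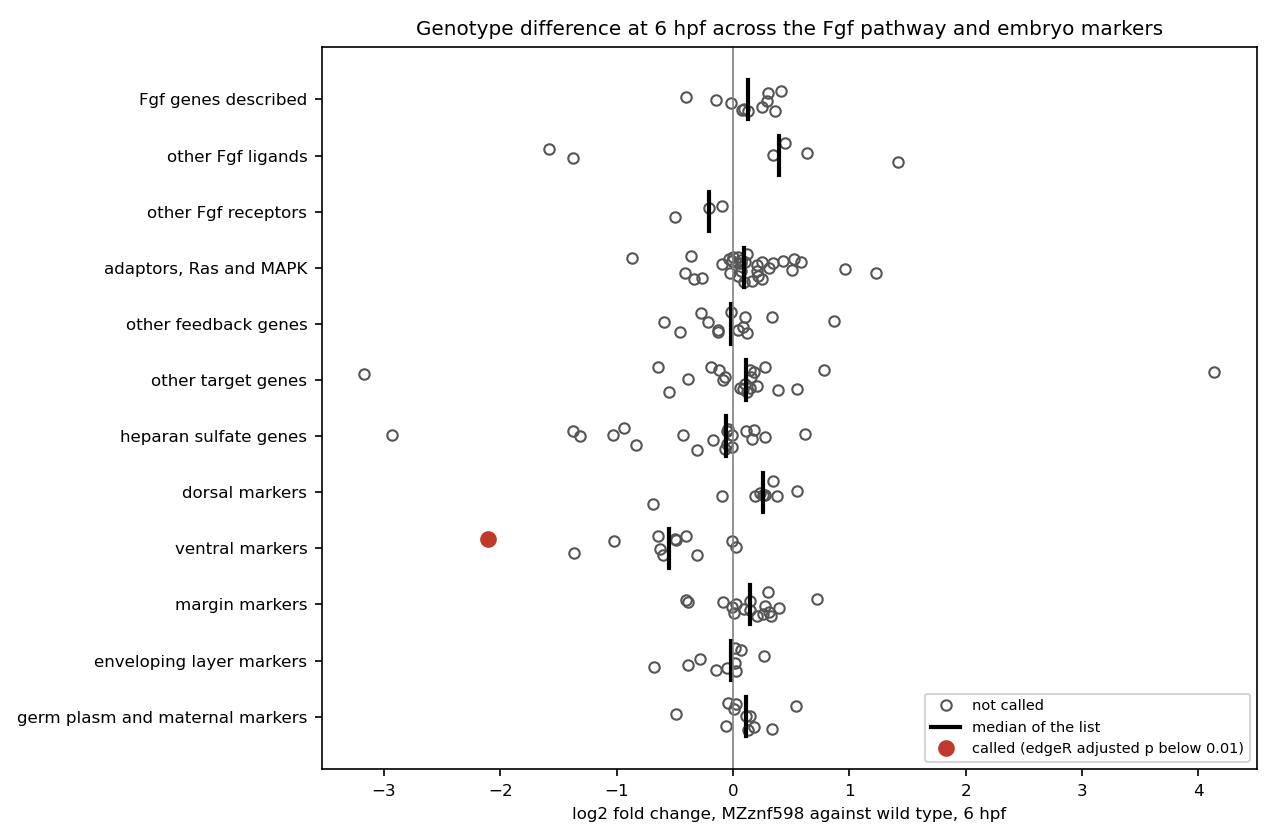
Log2 fold change of each gene tested, MZznf598 against wild type at 6 hpf (horizontal axis), for the Fgf genes described, 6 lists of other pathway genes and 5 lists of markers (rows), with the median of each list (black bars). Filled points are genes with an edgeR adjusted p below 0.01, of which szl among the ventral markers, at -2.10, is the single one. The ventral list has its median at -0.55. The row of other Fgf ligands holds other genes with an fgf symbol.

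Across the MZT, 45 of the 97 other pathway genes rose and 24 fell in wild type, where 36.5% of all genes rose and 33.9% fell, and no test compared the lists with each other. Of the 22 other targets tested, 17 rose and 2 fell, and of the 13 other feedback genes 8 rose and 2 fell. The targets tbxta, tbx16 and cxcr4 were also in the margin marker list, and cdx4 in the ventral one. The T-box gene tbx16, a regulator of mesoderm, averaged 1680 ± 188 CPM at 6 hpf and 0.349 ± 0.548 CPM at 1 hpf, and flrt3, a membrane protein gene linked to Fgf signalling, 362 ± 42.7 CPM at 6 hpf and 0.170 ± 0.092 CPM at 1 hpf (SD, n = 3 each). Of the 33 adaptors, Ras and MAP kinase genes, 9 rose and 12 fell, and of the 20 heparan sulfate genes 8 rose and 5 fell.

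Among the 6 other genes with an fgf symbol tested, fgf4, fgf14, fgf18 and copies of fgf12 and fgf13, 1 rose and 3 fell in wild type. These genes were taken by symbol, whether or not they encode secreted ligands. The ligand gene fgf4 averaged 6.75 ± 1.83 CPM at 6 hpf and was at 0 counts in the 3 libraries at 1 hpf, at least 31.4-fold higher. Of the genes that fell, fgf14 averaged 1.18 ± 0.616 CPM at 6 hpf and 7.99 ± 0.481 CPM at 1 hpf, and fgf18 (ENSDARG00000088048) 0.309 ± 0.334 CPM at 6 hpf and 2.84 ± 0.417 CPM at 1 hpf (SD, n = 3 each). The receptor gene fgfr4 averaged 770 ± 55.9 CPM at 6 hpf and 0.191 ± 0.330 CPM at 1 hpf, and fgfr2 averaged 36.5 ± 3.18 CPM at 6 hpf and 0.187 ± 0.132 CPM at 1 hpf. At 1 hpf, fgfr1 transcripts of both copies were present in every library, while fgfr2 and fgfr4 were below 1 CPM in each.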

How the data were processed

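The deposited values were whole-number counts of reads per Ensembl gene, 1 table per library, none of them normalized. According to the study and the submitters' processing notes, total RNA of whole embryos was depleted of ribosomal RNA and made into stranded single-end libraries, and the authors mapped trimmed reads to GRCz11 by STAR 2.7.8a, kept unique alignments and counted with featureCounts. The strand setting of the counting is not given in the sources used here.

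The tests used edgeR 4.0.16 in R 4.3.3. A gene needed more than 1 CPM in 3 or more libraries, which 15829 of 25432 genes had. After TMM normalization, a quasi-likelihood model with 4 group means and the robust option was fitted to all 12 libraries, with 8 residual degrees of freedom, and p-values were adjusted over all genes tested (2-sided, called below 0.01). The SE was derived from the log2 fold change and the F statistic, and 95% intervals use it with the moderated degrees of freedom. A floor of 3 counts per library, 0.197 to 0.508 TMM-normalized CPM, stood for 0, and counting intervals were exact binomial. Floors and intervals of counts cover counting error only. The procedure was run on simulated counts with 1 spread for all libraries, so that no simulated library stood apart from its group. The planted changes were larger than the 6 hpf differences of the Fgf genes, so the simulation does not cover differences of that size. Alternatives were DESeq2 1.42.0, the likelihood ratio test, other size factors and filters, a replicate block, a test against 1.5-fold, the 6 libraries of a comparison alone, and leaving out libraries. Symbols came from a name table that held one for 23608 of the 25432 genes.

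The Fgf genes and the lists of pathway and marker genes were chosen by known role, with earlier results of these data known. The list of other ligands held genes with an fgf symbol, whether or not they encode secreted ligands. Pathway genes outside the Fgf set are named where they were called in a genotype comparison, or were among the 3 of their list with the largest stage change in wild type, of which the text gives a part. Marker genes are named where they were called between the genotypes at 6 hpf. Others are named only where lists share genes, for the third wild-type library at 6 hpf, or for the make-up of a sum. At 1 hpf, 1 of the 11 germ plasm and maternal markers tested was also called, lower in MZznf598, and is not described. Replicate numbers paired the stages within a genotype: deviations from the group mean correlated at r of 0.156 to 0.224 in the 6 same-numbered pairs, and at -0.181 to 0.0646 in the other 12. Across genotypes at the same stage, same-numbered libraries correlated at -0.126 to 0.0868, so numbers did not pair genotypes. No sequence was used here.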

Additional observations from a re-analysis of the deposited data

How the results depend on the processing

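The 0 calls of Fgf genes at 6 hpf between genotypes, and the 10 genes that rose and 1 that fell in MZznf598, were the same under every alternative run. Tested against 1.5-fold, 0 Fgf genes fell in wild type across the MZT. Excluding the third wild-type library at both stages, an alternative chosen after seeing the data, called 1 Fgf gene (il17rd) higher in MZznf598 at 1 hpf. Over the 12 fits that left out 1 library, the number of Fgf genes lower in MZznf598 at 1 hpf was 0 to 1 (etv4). The replicate block gave 0 Fgf genes in both genotype comparisons and the interaction, and 10 higher and 1 lower in both stage comparisons, and the block within genotype changed no call of a Fgf gene.

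Some differences that were not called changed sign, that of fgf24 at 6 hpf (-0.40 with all libraries) through the third wild-type library. Excluding the third wild-type library at both stages gave, at 6 hpf, 0.033 for fgf24, -0.053 for il17rd and 0.055 for etv4, and, at 1 hpf, 0.0053 for fgfr1 (ENSDARG00000011027), -0.017 for fgfr1 (ENSDARG00000011190) and -0.24 for spry2. Leaving out 1 library at a time gave, at 6 hpf, -0.66 to 0.028 for fgf24, -0.057 to 0.26 for il17rd and -0.16 to 0.051 for etv4. At 1 hpf it gave -0.036 to 0.012 for fgfr1 (ENSDARG00000011027), -0.019 to 0.085 for fgfr1 (ENSDARG00000011190) and -0.24 to 0.30 for spry2, and in the interaction -0.41 to 0.046 for il17rd and -0.44 to 0.098 for spry2. None of these was called under any of these fits, and the cause was not tested.

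Over all genes, the 555 calls between genotypes at 6 hpf became 157 against 1.5-fold, 1123 with the likelihood ratio test, 1111 with DESeq2 and 1764 without the third wild-type libraries. With the size factors of DESeq2 in edgeR, the median stage change of all genes was 0.13 in MZznf598 and 0.12 in wild type, against -0.01 and -0.02, and each Fgf gene kept its direction across the stages. A group with 1 library left out was tested with the spread of all groups.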
